A study of Rattus norvegicus with 16 samples.

Results

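The genes described here encode the protein components of the cytosolic ribosome, read on a rat expression array in retina and pineal gland. A probe set is a group of short probes read as 1 value. It was taken when its annotation held a single gene symbol of a small-subunit (Rps, Rpsa) or large-subunit (Rpl, Rplp) protein. Kinases named Rps6k were left out. This gave 63 of the 8740 probe sets that are no control, for 43 gene symbols: 17 probe sets for 11 proteins of the 40S subunit, 38 for 26 proteins of the 60S subunit, 5 for 4 paralog symbols (Rpl3l, Rps27l, Rpl19l4 and Rpl36al1) and 3 for 2 pseudogene symbols (Rps2-ps1 and Rps4x-ps9). A further 40 probe sets carry several symbols, at least 1 of them a ribosomal protein, and were not counted as members. Rplp1, Rplp2 and Rps27a have no probe set with a single symbol here. Ribosomal protein genes have many near-identical copies in mammalian genomes, so a probe set may also read transcripts of a copy, and the gene behind a value is uncertain to that extent.

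Total RNA of Rattus norvegicus was hybridised to 16 arrays, 4 titled pineal and 12 titled retina. The retina arrays form 4 groups of 3, at circadian time (CT) 12, CT 6, Zeitgeber time (ZT) 12 and ZT 6, in hours, and the pineal gland has 1 array at each of these times. By convention ZT is clock time relative to lights on, and CT is time by the animal's own rhythm in constant conditions. The labels name no strain, age, sex or lighting, and do not say whether numbered arrays are of different animals; the p-values therefore rest on the spread between arrays, which may be technical. The source field of all 4 pineal arrays says retina, and the pineal array titled ZT 12 has a description giving 6 h; the titles were used. The titles also begin with an organ, which is brain for the 4 retina arrays numbered 3 and for pineal ZT 12, and eye for the other 11 arrays; what this marks is not stated.

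The ribosome translates messenger RNA with a small subunit that decodes and a large subunit that joins amino acids, and most of its proteins are present in equal number. In mammals the transcripts of these genes typically begin with a C followed by a run of C and T, the 5′ terminal oligopyrimidine tract, through which growth signalling by mTOR sets how well they are translated. Retina is rich in photoreceptors that renew their outer segments day by day, and the pineal gland is an endocrine tissue that makes melatonin at night.

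The starts of these genes are shown because that tract is their best known shared sequence feature. Promoter sequences from RefSeq (build GRCr8) matched 37 of the 43 symbols. In 11 of the 37 (29.73%) the annotated first transcribed base was a C followed by at least 4 C or T on the gene's strand, against 2.63% of the 33469 promoters in the table. Each line below gives 10 bases before the annotated start and 20 from it, 5′ to 3′ on the gene's strand, with the tract in capitals. The first 5 genes have the tract at the annotated start, and the last 5 do not.
Rpl31: atccctcgcgCCTTTCCTTTCCaacttggg
Rpl19: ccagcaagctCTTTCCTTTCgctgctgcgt
Rpl39: taatcgcgttCTTCCggcctgtcctttctc
Rplp0: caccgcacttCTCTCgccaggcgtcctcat
Rps15: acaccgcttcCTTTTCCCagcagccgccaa
Rps10: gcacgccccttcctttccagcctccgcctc
Rps24: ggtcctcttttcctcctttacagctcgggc
Rpsa: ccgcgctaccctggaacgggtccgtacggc
Rpl11: cttgaagcttgtttggtgctggggagcatc
Rpl3: gcctgctcgatctctatcggcggcgtgtgg
These lie at chr9:49143101-49143130 on the plus strand (Rpl31), chr10:83519054-83519083 plus (Rpl19), chrX:121195877-121195906 minus (Rpl39), chr12:46718371-46718400 minus (Rplp0), chr7:10068096-10068125 minus (Rps15), chr20:5700725-5700754 minus (Rps10), chr16:96507-96536 plus (Rps24), chr8:128728869-128728898 plus (Rpsa), chr5:153560783-153560812 minus (Rpl11) and chr7:113507971-113508000 minus (Rpl3). Rps10 and Rps24 have runs of C and T that the rule leaves out because the annotated first base is a T. The same is true of Rpl3, Rpl27a, Rps9 and Rps23. The absence of the tract says only that these letters are not at the annotated start.

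Values below are log2 of the deposited intensity plus 16 after quantile normalization, and differences are on this log2 scale. Of the 63 member probe sets, 60 passed the filter on low values in the fit over retina arrays and in the fit over both tissues. The 3 that did not were both probe sets of Rps2-ps1 and the probe set rc_AA891037_g_at of Rpl3l, whose product is a muscle paralog of Rpl3. The Rps2-ps1 probe set L81138exon_i_at was at 5.78 in pineal CT12, 8.71 in pineal CT6, 9.73 in pineal ZT12 and 9.86 in pineal ZT6, against 5.62 to 6.25 in the 12 retina arrays. On the deposited scale the 63 member probe sets together made up 3.76% to 4.24% of the summed intensity on pineal arrays and 4.52% to 8.12% on retina arrays.

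One retina array was unlike the rest: CT12 array 1 correlated with the other retina arrays at a median Spearman rho of 0.837, against 0.944 to 0.962 for the other 11. Its summed intensity over the 6 measured rod genes was 28607, against 290980 to 465230 on the other retina arrays. Summed lens gene intensity was highest on CT12 array 1 (3836200) and CT12 array 2 (2500200) and reached 53200 to 1429600 on the other 10 retina arrays. The members' medians and named genes' differences that moved by more than 1.5 times without CT12 array 1 are therefore also given without it. Medians of marker genes are not. Summed over 5 measured pineal genes, intensity was 52087 to 71078 in pineal arrays and 3421 to 5312 in retina arrays, so the pineal titles held against these markers, while rod genes summed to 93528 to 118210 in pineal arrays.

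**Figure D1:**
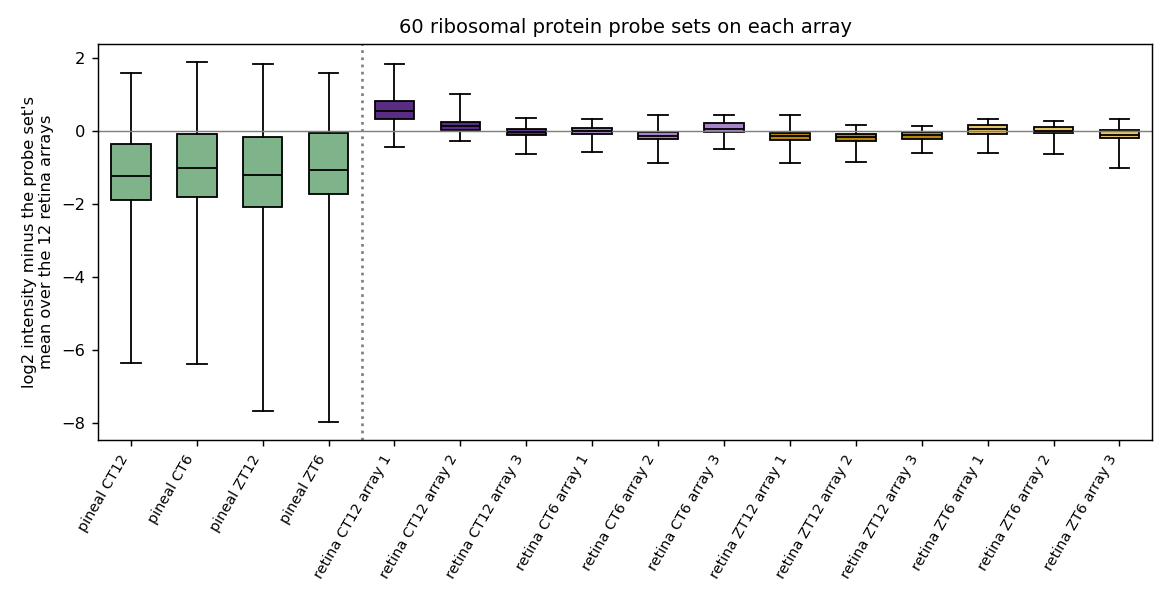
Spread of the 60 tested ribosomal protein probe sets on each of the 16 arrays. The y axis is the log2 intensity minus the probe set's mean over the 12 retina arrays; boxes span the quartiles, the line is the median and whiskers reach the lowest and highest probe set. The pineal medians lie between -1.22 and -1.01, and retina CT12 array 1 has the highest median, 0.55, while the other retina medians lie between -0.18 and 0.14.

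The first comparison set the pineal gland against retina. Most ribosomal protein probe sets were lower in the pineal gland: of 60 tested, 41 fell and 10 rose (limma, adjusted p under 0.05), against 36.4% of all 5244 probe sets that fell and 39.4% that rose, 75.8% called in all. The median difference was -1.15 over the members and 0.09 over all probe sets tested. Pineal and retina arrays did not overlap for 36 members that were lower and 7 that were higher, against 24.4% and 27.2% of all probe sets. At least a 2-fold lower value was fitted for 33 of 60 members (55.0%, against 28.1% of all) and a 4-fold lower one for 15 (25.0%, against 15.6%). No member was 4-fold higher, while 7.80% of all probe sets were. The counts of lower members, 41, 36, 33 and 15, each include the Rpl11 probe set X62146cds_at. Its pineal readings all lay under the filter limit of 8.82, which it passed through retina. By symbol, 28 of 42 had at least 1 probe set that fell and none that rose, 6 had only rises, 2 had both, and 6 (Rpl5, Rpl13a, Rpl14, Rpl17, Rpl30 and Rpl31) had no call.

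Matched by time, the median of the 60 members was -1.61 between pineal CT12 and the 3 retina arrays at CT12, -0.997 at CT6, -1.14 at ZT12 and -1.04 at ZT6, while the medians of all probe sets were between 0.05 and 0.11. The size depended on scaling. With a common median for each array in place of quantile normalization, 31 members fell and 12 rose, with a median of -0.67, and the median of all probe sets moved to 0.28. With the intensities as deposited, 42 fell and 11 rose, and the medians were -1.18 for members and -0.23 for all. These counts are not set against the share of all probe sets called under each scaling. In bulk tissue, fewer cells of a type and less RNA per cell cannot be told apart. The pineal arrays also lacked lens signal, with a summed lens intensity of 13859 to 19951, and had immune gene sums of 48023 to 64689, against 7966 to 23588 in retina arrays; the part of these tissues' cell makeup in the ribosomal protein difference was not tested. No label separates the tissues' processing dates, so a batch and the tissue cannot be told apart.

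All 17 probe sets of the 40S subunit passed the test, 13 lower and 4 higher, with a median of -1.52. Over all probe sets tested 75.8% passed, 36.4% lower and 39.4% higher. Rps10, whose ubiquitination marks collided ribosomes, was at 11.60, 11.82, 11.75 and 11.72 in pineal CT12, CT6, ZT12 and ZT6. The 12 retina arrays ranged from 14.11 to 15.27 with a median of 14.41. The groups were far apart, and Rps10 fell by 2.72 ± 0.16 (SE, adjusted p = 2.3e-09, limma), 6.58-fold. Rpsa, a protein of the 40S subunit that is also known as the laminin receptor, was at 11.78, 12.44, 12.12 and 12.66 in the pineal arrays in the same order on its probe set D25224_g_at. Retina ranged from 14.80 to 15.80, and the difference was -2.76 ± 0.19 (SE, adjusted p = 9.7e-09, limma). Its other probe set gave -1.52, so both Rpsa readings fell. Rps24, mutated in some inherited anaemias of humans, was at 10.13, 9.98, 10.36 and 9.43 in the pineal arrays and ranged from 11.49 to 13.24 in retina, a difference of -2.05 ± 0.22 (SE, adjusted p = 1.3e-06, limma). Rps16, whose tail reaches the transfer RNA in the decoding site, fell by 1.55, Rps9 fell by 1.26 and Rps3a fell by 0.56.

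The 40S probe sets that rose belonged to 3 genes. Rps6, the target of the S6 kinases, rose on both its probe sets, by 1.17 ± 0.14 on M29358_g_at and 0.51 ± 0.16 on M29358_at (SE, adjusted p = 2.7e-06 and 0.011, limma). Without pineal CT6 the second was 0.44 and did not pass (adjusted p = 0.053, limma). On the first of these, pineal CT12, CT6, ZT12 and ZT6 read 15.99, 15.99, 15.86 and 16.03, against 14.60 to 15.55 in retina, without overlap. On the second they read 14.25, 14.39, 14.18 and 14.15, inside the retina range of 13.50 to 14.62. Rps23, which sits at the decoding centre, was at 15.78, 16.07, 16.16 and 15.97 in pineal CT12, CT6, ZT12 and ZT6, against 14.96 to 15.48 in retina, and rose by 0.86 ± 0.11 (SE, adjusted p = 9.1e-06, limma). The third gene, Rps3, was split between its probe sets.

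Of the 38 probe sets of the 60S subunit, 25 fell and 4 rose, with a median of -1.14. Over all probe sets tested 36.4% fell and 39.4% rose. Rpl11 is a protein that enters the large subunit together with Rpl5. Its probe set X62146cds_at read 8.72, 8.69, 7.40 and 7.11 in pineal CT12, CT6, ZT12 and ZT6, and 14.79 to 15.41 in retina. As deposited, these are intensities of 105.4 to 304.9 in pineal and 26623 to 68488 in retina. The pineal readings all lay under the filter limit of 8.82, which the probe set passed through retina, so no fold is given for it. The second probe set of the gene, X62146cds_g_at, read 12.78 to 13.41 in pineal and 14.16 to 15.40 in retina, a difference of -1.52.

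Rpl26, found near the exit of the peptide tunnel, fell on both its probe sets, with differences of -5.25 ± 0.14 on rc_AA893493_i_at and -2.46 ± 0.14 on X14671cds_s_at (SE, adjusted p = 9.3e-13 and 9.3e-10, limma). On the first, pineal CT12, CT6, ZT12 and ZT6 read 10.04, 10.26, 9.92 and 9.93, against 14.88 to 15.56 in retina. On the second they read 12.47, 12.83, 12.71 and 12.61, against 14.74 to 15.58 in retina, so neither overlapped. Rpl27a fell by 2.89, with readings of 12.89, 13.12, 12.86 and 13.24 in the pineal arrays in the same order and of 15.51 to 16.47 in retina.

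A further 5 large-subunit genes, beside Rpl23, had a probe set at least 4-fold lower in the pineal gland without overlap. The probe sets of Rpl23 differed in sign and are given below. Rpl6 (rc_AA799672_s_at) read 12.61, 12.86, 12.84 and 12.93 in pineal CT12, CT6, ZT12 and ZT6, against 14.72 to 15.91 in retina. It differed by -2.28, and the other probe set of Rpl6 by -1.14. Rpl36 read 11.97, 12.23, 12.21 and 12.27, against 14.11 to 15.20 in retina, and differed by -2.25. Rpl7a read 13.23, 13.28, 13.44 and 13.18, against 15.13 to 15.74 in retina, and differed by -2.08. In these 3 the pineal arrays at different hours and regimes lay close together beside the distance to retina. Rpl18 read 11.99, 12.00, 11.99 and 12.16, against 13.85 to 14.64 in retina, and differed by -2.07. Rpl24, which forms a bridge between the subunits, read 13.10, 13.60, 13.15 and 13.51 on rc_AA817997_g_at, against 15.15 to 15.80 in retina. It differed by -2.06, and the other probe set of Rpl24 by -1.52. Rplp0, the base of the stalk that recruits elongation factors, read 14.34, 14.44, 14.54 and 14.74 in pineal CT12, CT6, ZT12 and ZT6, against 15.79 to 16.74 in retina, and its difference was -1.74. Smaller falls were found for Rpl27 (-1.57 and -1.35), Rpl19 (-1.53), Rpl41 (-1.14), Rpl4 (-0.44), Rpl35a (-0.43) and Rpl39 (-0.42), and for 1 of 2 probe sets of Rpl35 (-1.19, the other -0.20) and 3 of 4 of Rpl21 (-1.76 to -0.74, the other -0.08).

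The 6 genes with no call were all of the 60S subunit. Rpl5, the partner of Rpl11 on the way into the subunit, read 8.51, 8.87, 8.94 and 9.13 in pineal CT12, CT6, ZT12 and ZT6, against 8.43 to 10.18 in retina, and differed by -0.26. The differences of Rpl31 (-0.22), Rpl30 (-0.22), Rpl17 (-0.21) and Rpl14 (-0.09) were of like size, and Rpl13a, which in human monocytes can leave the ribosome, had -0.05 and 0.21.

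The rises of the 60S subunit came from Rpl3, Rpl22 and 1 probe set of Rpl23. Rpl3, a protein of the catalytic centre, gave 237200, 226180, 297580 and 252320 deposited intensity units in pineal CT12, CT6, ZT12 and ZT6 on rc_AA892367_i_at, and 75329 to 129370 in retina. The difference after normalization was 1.58 ± 0.11 (SE, adjusted p = 7.5e-09, limma), where equal ranks received 1 value in all 4 pineal arrays. Its other probe set, X62166cds_s_at, read 15.65, 15.88, 15.76 and 15.65 in the same pineal arrays and 15.04 to 15.55 in retina, and rose by 0.48. Rpl22, an RNA-binding protein of the large subunit, read 15.65, 15.82, 15.82 and 15.92 in pineal CT12, CT6, ZT12 and ZT6, against 14.31 to 15.15 in retina, and rose by 1.22 ± 0.13 (SE, adjusted p = 1.4e-06, limma).

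Among the paralog and pseudogene symbols, Rpl19l4, Rpl36al1 and the tested Rpl3l probe set fell, by 1.26, 0.49 and 0.86. Rps27l, a paralog induced by p53 in human cells, rose by 0.95 ± 0.32 (SE, adjusted p = 0.015, limma). Its pineal readings of 12.13, 12.44, 12.26 and 12.38 at CT12, CT6, ZT12 and ZT6 lay within the retina range of 10.72 to 13.18, and its adjusted p was 0.052 to 0.066 (limma) when 1 of pineal ZT6, pineal ZT12, pineal CT6 or all arrays numbered 3 were left out. The pseudogene symbol Rps4x-ps9 rose by 1.55 ± 0.26 (SE, adjusted p = 9.1e-05, limma), with pineal readings of 14.39, 14.72, 14.67 and 13.77 in the same order and 12.38 to 14.23 in retina, so the groups overlapped.

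**Figure D2:**
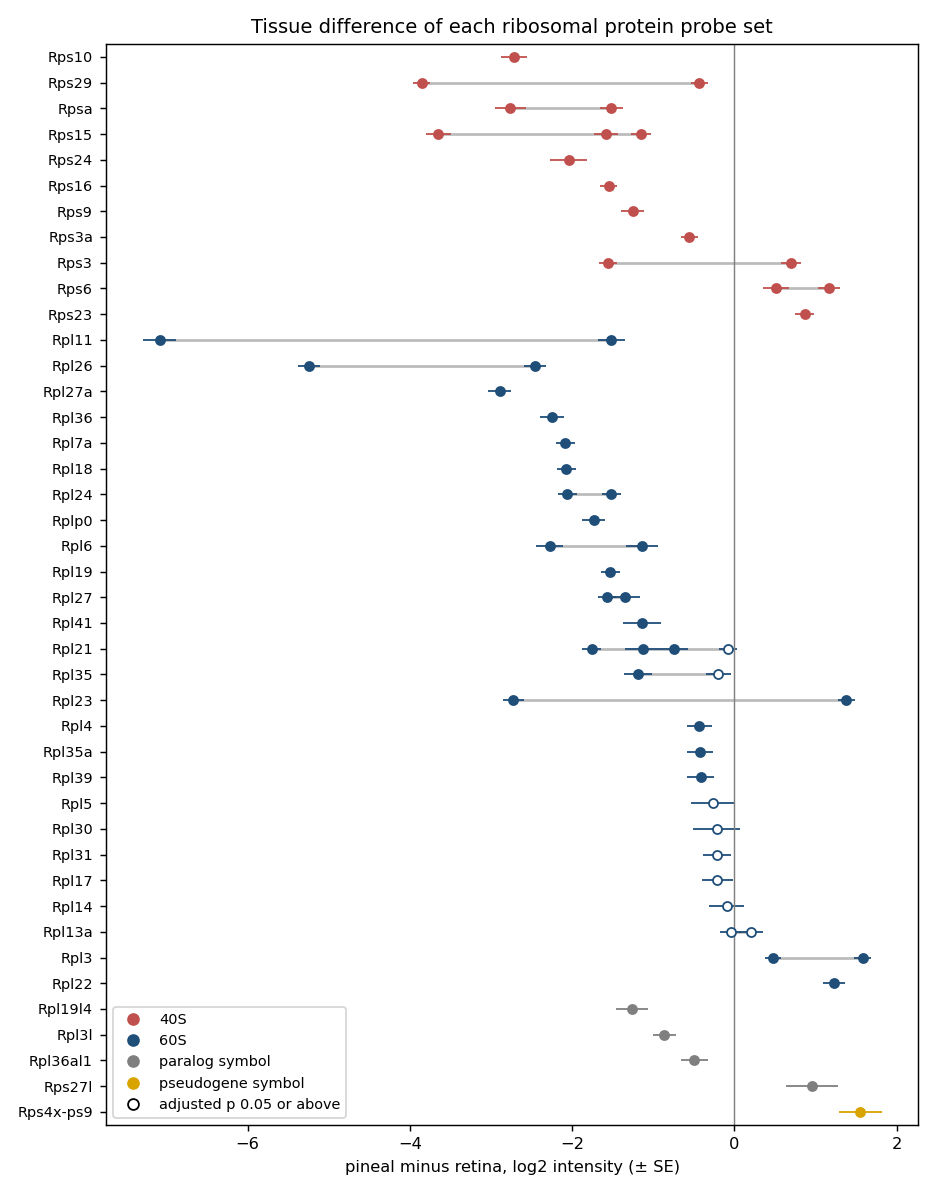
Pineal minus retina difference (log2, x axis) of each tested ribosomal protein probe set, with its SE, by gene symbol (y axis); grey lines join probe sets of the same symbol. Filled points have an adjusted p under 0.05 (limma); 41 lie below 0 and 10 above, and the points of Rpl11, Rpl23, Rps29 and Rps3 lie far from each other on their lines. The lower Rpl11 point rests on pineal readings under the filter limit of 8.82.

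Probe sets annotated to the same gene often disagreed. Of 15 symbols with more than 1 tested probe set, 10 had tissue differences more than 1 log2 unit apart. Rpl23, a large-subunit protein at the interface with the small subunit, had X58200mRNA_at at 2303 to 2457 deposited units in pineal arrays and 14966 to 42730 in retina arrays, a difference of -2.73. Its partner X58200mRNA_g_at, named for the same database entry, read 165920 to 194440 in pineal and 56523 to 122030 in retina, a difference of 1.38. Both differences passed the test with opposite signs. Rps3, which lines the entry of the messenger RNA channel, gave -1.56 on X51536cds_at and 0.70 on X51536cds_g_at. The second read 16.29, 16.64, 16.68 and 16.64 in pineal CT12, CT6, ZT12 and ZT6, against 15.61 to 16.18 in retina. Rps29 gave -3.85 on X59051cds_s_at (12.94, 12.97, 12.91 and 13.09 in the pineal arrays in that order, 16.64 to 17.11 in retina) and -0.44 on rc_AA965264_at. The 3 probe sets of Rps15, a protein of the small subunit's head, gave -3.65, -1.58 and -1.16, the first with readings of 11.26, 11.56, 11.36 and 11.72 in the pineal arrays and 14.76 to 15.94 in retina. For these genes the size of the tissue difference, and for Rpl23 and Rps3 also its direction, depended on the probe set read.

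The tissue difference also varied with the kind of database entry in the probe set's name, a grouping made after the values were seen. Members named for a coding sequence (cds) had a median of -1.65 (n = 14), those named for an expressed sequence tag -0.49 (n = 27) and the others -1.14 (n = 19). Over all tested probe sets the same kinds had medians of -1.20 (n = 327), 0.44 (n = 2246) and -0.15 (n = 2671). The members' median therefore lay below that of all probe sets in each kind, and the part of the probe design in the tissue difference was not tested. The 38 tested probe sets that carry several symbols had 30 lower and 4 higher calls and a median of -2.23. With only the brightest probe set of each gene, 27 of 42 fell and 8 rose, with a median of -0.71. The same fit called 36.4% of all 5244 probe sets lower and 39.4% higher. The 11 genes with the oligopyrimidine start had a median difference of -0.43 (range -2.13 to 1.22), and the 26 without it -1.20, each gene taken as the mean of its probe sets; this is a description, without a test.

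Other genes of translation showed a mixed pattern between pineal and retina, on 1 probe set per gene. The counts below stand beside 39.4% of all probe sets called higher and 36.4% called lower. Of 5 tested elongation factors, Eef2 fell by 3.18 and Eef1a2, the form of neurons and muscle, fell by 2.97, Eef2k rose by 0.37, and Eef1a1 (0.09) and Eef1g (-0.30) did not pass (limma). Of 19 initiation factor genes 11 rose and 4 fell, among them Eif3m (2.54), Eif2b3 (2.54), Eif4a2 (-3.15) and Eif4h (-1.15), and the median was 0.59. Of 13 mitochondrial ribosomal protein genes, which serve the separate ribosome of mitochondria, 10 rose and 3 fell, with a median of 0.84. Mrps14 (2.84) and Mrpl13 (1.64) rose, and Mrpl38 (-3.52) and Mrps11 (-1.57) fell.

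Of 9 nucleolar assembly genes, 4 rose and 3 fell, close to the shares over all probe sets. Ddx21, a helicase (2.75), and Polr1d, a polymerase subunit (2.13), rose, while Ubtf, the factor that directs ribosomal DNA transcription (-3.78), and nucleolin, Ncl (-1.40), fell. Of 4 ribosome-associated genes, Naca (0.93) and Sec61b (0.61) rose, Sec61a1 (-1.55) fell and Rack1, which sits on the 40S subunit, differed by -0.13 without passing the test. Of 10 genes of growth signalling to ribosomes, 2 rose and 6 fell, including Rheb (1.504), an activator of mTOR, and Max (-2.85), the partner of Myc. Mtor itself differed by 0.13 and did not pass.

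Signal differed widely between member probe sets within retina. The brightest were Rps29 (X59051cds_s_at), at a median of 16.88 over the 12 retina arrays (16.68 to 17.14), Rps29 (rc_AA965264_at, 16.51, 16.16 to 16.76) and Rpl3 (rc_AA892367_i_at, 16.48, 16.32 to 16.84). The dimmest were the probe sets of Rps2-ps1 (medians of 5.76 and 7.59) and rc_AA891037_g_at of Rpl3l (8.80, 7.11 to 9.43), and the dimmest that were tested were Rpl5 (9.29, 8.53 to 10.28) and Rpl30 (9.60, 8.87 to 10.36). Levels of different probe sets are not compared as amounts of transcript. Rplp0 in retina read 16.79, 16.50 and 16.26 on CT12 arrays 1 to 3, then 16.35, 16.28 and 16.26 at CT6, 16.14, 16.24 and 16.14 at ZT12, and 16.35, 16.19 and 15.78 at ZT6. Rpsa (D25224_g_at) read 15.79, 15.34 and 14.88, then 15.01, 14.76 and 14.95, then 14.98, 14.77 and 14.91, and then 14.81, 14.86 and 14.78 in the same order. Both had their highest value on CT12 array 1.

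The second question was whether these genes varied in retina with the hour and the regime. None of the 60 member probe sets passed an adjusted p of 0.05 in any of 7 comparisons (limma), while 0.0% to 0.61% of all 5244 probe sets did. The members nevertheless moved together from array to array. Over the 12 retina arrays the median Pearson correlation of a member with the members' median was 0.82. Of 60 members 39 exceeded 0.7, against 719 of 5244 probe sets. All points share the same arrays and scaling. The members' median is made from the members themselves, so their share above 0.7 is partly built in. Without CT12 array 1 the median was 0.59 over 11 arrays, with 19 members above 0.7, against 113 of 5244 probe sets. The members' median deviation from the retina mean was 0.59, 0.15 and -0.02 on CT12 arrays 1 to 3. It was 0.00, -0.14 and 0.07 at CT6, then -0.15, -0.18 and -0.13 at ZT12, and 0.05, 0.00 and -0.10 at ZT6. Array 1 of CT12, the array unlike the rest, held the highest value of 47 members, and the ZT12 arrays the lowest of 28. These counts were not taken over all probe sets, so they are not read as particular to the members.

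At hour 12, CT was set against ZT. The members' median difference, CT12 minus ZT12, was 0.36, against -0.02 over all probe sets, and 56 of 60 were positive, including all 38 of the 60S subunit. None passed after adjustment, against 0.61% of all probe sets, and 22 had an unadjusted p under 0.05 (36.7% of 60, against 26.2% of all). In 27 the CT12 arrays were all above the ZT12 arrays (12.6% of all probe sets), and in none all below (16.1%). Without CT12 array 1 the median was 0.21, 52 were positive, and 29 of 60 (48.3%) had the remaining CT12 arrays above ZT12, against 16.1% of all; 11 (18.3%) had an unadjusted p under 0.05, against 19.0% of all.

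Rpl39, which lines the peptide exit tunnel, read 14.05, 13.44 and 13.27 on CT12 arrays 1 to 3 and 12.62, 12.71 and 12.86 on ZT12 arrays 1 to 3. All CT12 arrays were higher, the difference was 0.86 ± 0.22 (SE), and the adjusted p was 0.11 (limma). Without CT12 array 1 it was 0.61 ± 0.17 (SE, adjusted p = 0.13, limma). Rps24 read 13.18, 12.54 and 12.18 at CT12 and 11.66, 11.56 and 11.78 at ZT12, a difference of 0.97 ± 0.25 (SE, adjusted p = 0.11, limma). The groups did not overlap, and array 1 was again highest. Without it the difference was 0.69 ± 0.20 (SE, adjusted p = 0.14, limma).

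Rpl31, at the rim of the tunnel, read 16.12, 15.60 and 15.28 at CT12 and 14.99, 14.76 and 14.99 at ZT12, and differed by 0.75 ± 0.20 (SE, adjusted p = 0.11, limma). Rpl21 (M27905_at) read 14.70, 14.37 and 14.27 at CT12 and 13.87, 13.80 and 13.93 at ZT12, and differed by 0.58 ± 0.15 (SE, adjusted p = 0.11, limma). Rpl4, which has a loop inside the tunnel, read 14.91, 14.40 and 14.36 at CT12 and 14.08, 13.98 and 13.82 at ZT12, and differed by 0.59 ± 0.18 (SE, adjusted p = 0.12, limma). In each of these the 3 CT12 arrays lay above the 3 ZT12 arrays, also without array 1, when the differences were 0.51, 0.44 and 0.40.

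**Figure D3:**
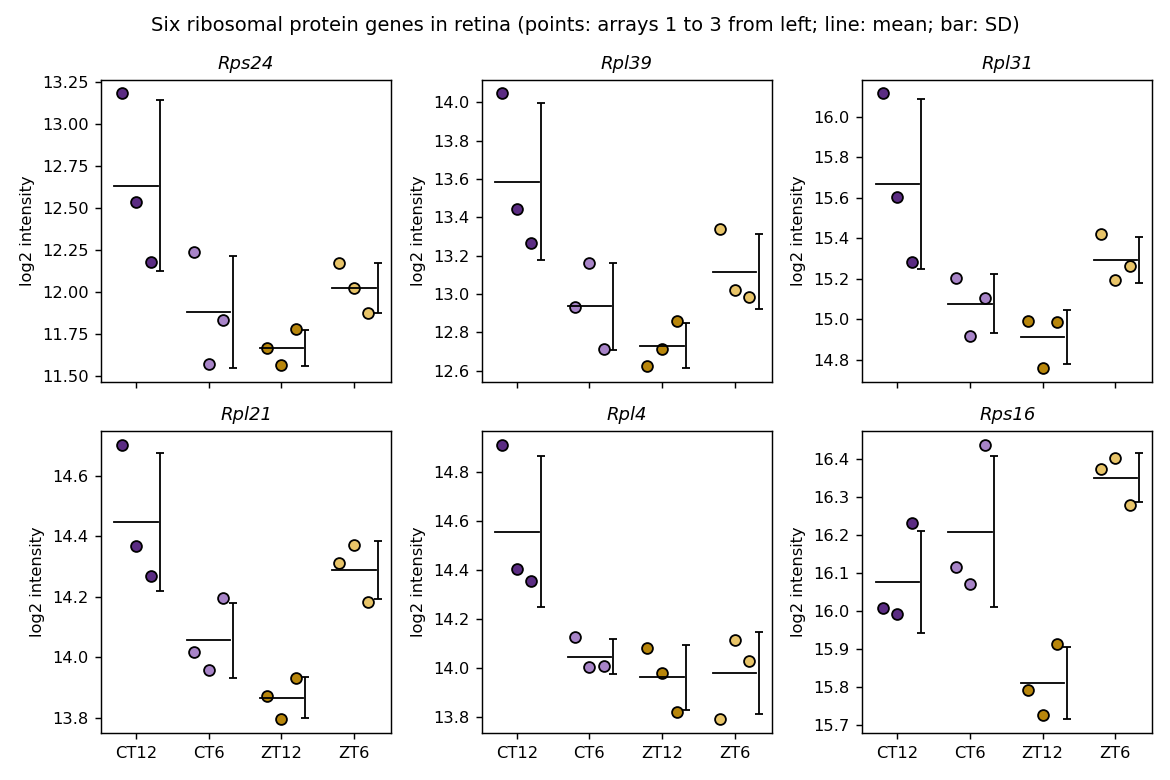
Log2 intensity (y axis) of 6 ribosomal protein genes on the 12 retina arrays by group (x axis); points are arrays 1 to 3 from left, the line is the mean and the bar the SD (n = 3). For Rps24, Rpl39, Rpl31, Rpl21 and Rpl4 all CT12 points lie above all ZT12 points and CT12 array 1 is the highest, while for Rps16 all ZT12 points lie below all ZT6 points.

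Other cell type markers differed between the same arrays. Beside the members, all 3 measured blood genes had positive differences for CT12 minus ZT12, with summed blood intensities of 56157 to 94801 at CT12 and 22404 to 35929 at ZT12. Of 12 lens genes 11 had positive differences, with sums of 1005400 to 3836200 at CT12 and 595260 to 1429600 at ZT12. Of 6 rod genes 1 was positive, with sums of 28607 to 385000 at CT12 and 382250 to 423520 at ZT12. Synaptic vesicle genes had 0 of 9 positive (median -1.10) and ganglion cell genes 1 of 7 (median -1.22). For these and for rod genes, CT12 array 1 stood far below CT12 arrays 2 and 3. Median deviations from the retina mean on CT12 arrays 1 to 3 were -3.54, -0.11 and 0.29 for rod genes. They were -2.20, -0.36 and 0.07 for synaptic vesicle genes and -3.53, -0.07 and 0.07 for ganglion cell genes. At ZT12 these ran from 0.18 to 0.34, 0.31 to 0.48 and 0.19 to 0.30, in the same order. Muller glia genes had 2 of 5 positive (median -0.45) and immune genes 7 of 8 (median 0.51). None of these marker genes passed the test (limma), and their part in the members' pattern was not tested. The 2 retina arrays with the lowest lens sums, CT6 array 3 (53200) and ZT6 array 2 (59885), had member medians of 0.07 and 0.00.

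**Figure D4:**
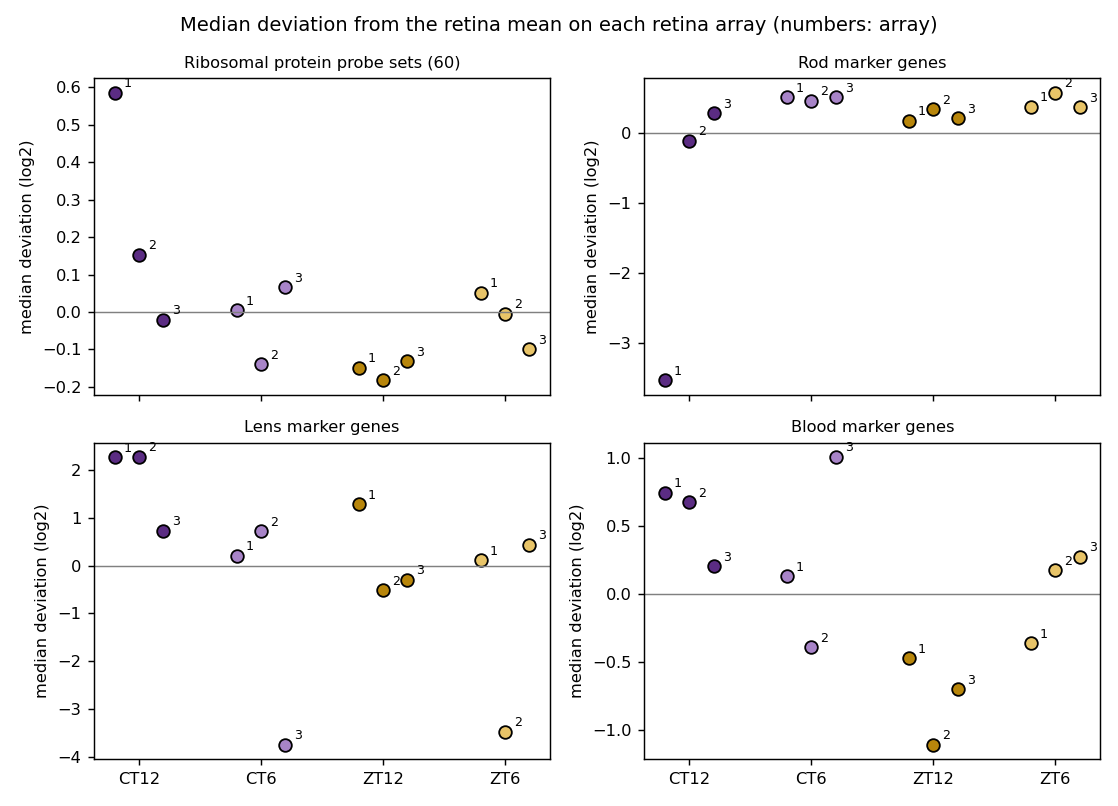
Median deviation from the mean of the 12 retina arrays (log2, y axis) on each retina array (number beside the point) by group (x axis), for the 60 ribosomal protein probe sets and for rod, lens and blood marker genes. CT12 array 1 is highest for the ribosomal protein probe sets (0.59) and lowest for rod genes (-3.54), CT12 arrays 1 and 2 are highest for lens genes (2.28), and the ZT12 arrays are the lowest of the blood panel.

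Within the light-dark regime, ZT12 was set against ZT6. The members' median difference was -0.14, against -0.02 over all probe sets, and 44 of 60 were negative. None passed after adjustment, against 0.286% of all, and 6 of 60 had an unadjusted p under 0.05, against 8.62% of all. In 22 members the ZT12 arrays lay all below the ZT6 arrays (15.1% of all probe sets) and in 1 all above (10.3%). With a common median per array, 33 of 60 were negative and the median was -0.03. Beside the members, all 12 lens genes had positive differences (median 1.24), with summed intensities of 595260 to 1429600 at ZT12 and 59885 to 781600 at ZT6. None of the 3 blood genes was positive (median -0.74), with sums of 22404 to 35929 at ZT12 and 35717 to 56223 at ZT6, and the part of either in the members' difference was not tested. Rps16 read 15.79, 15.72 and 15.91 on ZT12 arrays 1 to 3 and 16.37, 16.40 and 16.28 on ZT6 arrays 1 to 3. The groups did not overlap, and the difference was -0.54 ± 0.15 (SE, adjusted p = 0.25, limma). Rps29 (rc_AA965264_at) read 16.16, 16.28 and 16.40 at ZT12 and 16.73, 16.73 and 16.68 at ZT6, with a difference of -0.44 ± 0.15 (SE, adjusted p = 0.41, limma). Rps15 (rc_AA892895_i_at) read 11.27, 10.86 and 11.70 at ZT12 and 11.98, 11.79 and 11.94 at ZT6, a difference of -0.63. In both genes each ZT12 array lay below each ZT6 array. Rpl17 read 9.94, 10.63 and 10.37 at ZT12 and 10.88, 11.04 and 11.13 at ZT6, a difference of -0.71. Rpl21 (M27905_at), with its ZT12 values given above, read 14.31, 14.37 and 14.18 at ZT6, a difference of -0.42. The adjusted p of these 3 were 0.34 to 0.42 (limma). All 13 mitochondrial ribosomal protein genes also had negative differences here, with a median of -0.23, and none passed the test.

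Between CT12 and CT6 the members' median difference was 0.30, against -0.06 over all probe sets, and 45 of 60 were positive. None passed after adjustment, against 0.0381% of all, and 9 of 60 had an unadjusted p under 0.05, against 27.4% of all. CT12 arrays lay all above CT6 arrays for 7 members (10.6% of all) and all below for 2 (15.9%). Without CT12 array 1 the median was 0.08 and 41 were positive. In the same comparison all 12 lens genes were positive (median 2.78), while none of 6 rod genes (median -1.58) and 1 of 9 synaptic vesicle genes (median -1.19) were, and their part in the members' difference was not tested. The rod and synaptic vesicle medians include CT12 array 1, which stood far below the other CT12 arrays for these genes. Rpl39 at CT6 read 12.93, 13.16 and 12.71, below all its CT12 values, and CT12 minus CT6 was 0.65 ± 0.22 (SE, adjusted p = 0.14, limma). Rpl27 (rc_AI176589_at) read 14.41, 14.14 and 13.91 at CT12 and 13.86, 12.86 and 13.53 at CT6, a difference of 0.73 ± 0.26 (SE, adjusted p = 0.15, limma). Both genes had all CT12 arrays above all CT6 arrays. At CT6 Rps24 read 12.24, 11.57 and 11.84, Rpl31 read 15.21, 14.92 and 15.11, and Rpl4 read 14.13, 14.00 and 14.01. Their differences of 0.75, 0.59 and 0.51 had adjusted p of 0.14 (limma), and only Rps24 overlapped between the groups. When CT12 array 1 was left out, the differences were 0.41 for Rpl39, 0.59 for Rpl27, 0.47 for Rps24, 0.36 for Rpl31 and 0.31 for Rpl4, with adjusted p of 0.23 to 0.28 (limma).

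Between CT6 and ZT6 no direction prevailed: 30 members were positive and 30 negative, with a median of -0.01 for the members and -0.01 for all probe sets. As deposited or with a common median per array, the members' median was 0.02 or 0.06. No member had an unadjusted p under 0.05, against 5.07% of all, and 0.0% of all passed after adjustment. CT6 arrays lay all above ZT6 arrays for 2 members (7.95% of all) and all below for 4 (9.23%). The smallest p belonged to Rpl30, which represses its own transcript's splicing in yeast. It read 9.35, 10.05 and 10.06 on CT6 arrays 1 to 3 and 9.01, 9.57 and 8.98 on ZT6 arrays 1 to 3, with a difference of 0.64 ± 0.33 (SE, adjusted p = 1, limma). Rpl27 (rc_AI176589_at) read 13.94, 13.95 and 13.87 at ZT6, above its CT6 values, and differed by -0.50. Rpl3 (rc_AA892367_i_at) read 16.32, 16.41 and 16.79 at CT6 and 16.79, 16.76 and 16.84 at ZT6, a difference of -0.29. Rpl19l4 (0.50) and Rps15 (rc_AA892895_i_at, -0.32) followed, with CT6 readings of 12.94, 13.10 and 12.99 and of 11.54, 11.48 and 11.74, and ZT6 readings of 12.89, 12.88 and 11.76 and of 11.98, 11.79 and 11.94.

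Pooled over regimes, hour 12 minus hour 6 gave a members' median of 0.09 with 38 of 60 positive, no member after adjustment (0.21% of all) and 2 with an unadjusted p under 0.05 (17.6% of all). Those 2 were Rps16 (-0.34) and Rps29 (rc_AA965264_at, -0.24), whose adjusted p were 0.20 and 0.28 (limma). With a common median per array the Rps29 difference was 0.012. Next came Rpl3 (X62166cds_s_at, -0.22), Rps9 (0.28) and Rpl35 (M34331_at, 0.31), with adjusted p of 0.29 to 0.30 (limma). Their hour 12 arrays ran from 15.01 to 15.32, 14.73 to 15.43 and 14.19 to 15.20, and their hour 6 arrays from 15.20 to 15.53, 14.41 to 14.93 and 14.02 to 14.39, all with overlap. Pooled over hours, CT minus ZT gave a median of 0.21 with 54 positive, no member after adjustment (0.0% of all) and 9 with an unadjusted p under 0.05 (11.8% of all). The smallest p was that of Rpl21 (X15216cds_s_at), at 0.69 ± 0.20 (SE, adjusted p = 0.32, limma), with CT arrays from 13.24 to 14.58 and ZT arrays from 12.50 to 13.34. Rps15 (E01534cds_s_at) had all 6 CT arrays, at 15.05 to 15.94, above all 6 ZT arrays, at 14.72 to 15.03, the only member to do so (0.324% of all). Its difference was 0.40 ± 0.14 (SE, adjusted p = 0.34, limma). Rpl4, Rpl26 (X14671cds_s_at) and Rpl13a (rc_AA891713_at) each differed by 0.33, with adjusted p of 0.35 to 0.37 (limma). Without CT12 array 1 the medians were 0.00 for the hour and 0.12 for the regime. Among the genes just named, the differences that moved by more than 1.5 times without it were those of Rps9 (0.17) and Rpl35 (0.17) for the hour and of Rps15 (0.26) for the regime.

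The difference of the time effects, CT12 minus CT6 against ZT12 minus ZT6, tests whether the hour acted differently in the regimes. Its median was 0.34 over the members and -0.02 over all probe sets, with 54 of 60 positive. Its median was 0.18, with 46 positive, without CT12 array 1. No member passed after adjustment, against 0.0191% of all, and 8 (13.3%) had an unadjusted p under 0.05, against 16% of all. The smallest p were those of Rpl21 (M27905_at, 0.81 ± 0.21), Rps15 (rc_AA892895_i_at, 0.97 ± 0.28), Rpl39 (1.04 ± 0.30), Rpl31 (0.97 ± 0.29) and Rpl27 (rc_AI176589_at, 1.24 ± 0.37; SE), all with an adjusted p of 0.20 (limma). These 5 differences without CT12 array 1 were 0.66, 0.91, 0.79, 0.72 and 1.09, with adjusted p of 0.11 to 0.17 (limma). None of the tested genes of the elongation, initiation, ribosome-associated, nucleolar, mitochondrial and growth signalling lists passed in any retina comparison either.

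Outside the members, the probe sets most like the members' median over the 12 retina arrays were Churc1 (r = 0.98), 3 probe sets with several ribosomal protein symbols (r = 0.94 to 0.95) and Rph3al (r = 0.94). Over the 11 arrays without CT12 array 1 they were an unnamed probe set (M19257_at, r = 0.93), Churc1 (r = 0.90), Alas2 (r = 0.89), a probe set with several symbols (r = 0.88) and Msmo1 (r = 0.87).

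In the pineal gland the hour could be compared only between single arrays, without a test, on log2 values of the intensities as deposited. Of 61 members past the filter for these arrays, none differed 2-fold in the same direction in both regimes, against 1.53% of all probe sets higher and 1.03% lower. The members' median was -0.28 for CT12 minus CT6 and -0.15 for ZT12 minus ZT6, and -0.07 in both over all probe sets. Values were lower at hour 12 in both regimes for 38 of 61 members (62.3%, against 37.9% of all), higher in both for 8, and opposite for 15. Summed blood gene intensity was also lower at hour 12 in both regimes, at 48663 in pineal CT12 and 142410 in pineal CT6, and at 84927 in pineal ZT12 and 257050 in pineal ZT6. Its part in the members' values was not tested. Rpsa (D25224_g_at) was at 11.56 in pineal CT12 and 12.51 in pineal CT6, and at 12.04 in pineal ZT12 and 12.72 in pineal ZT6. Rpl11 (X62146cds_g_at) was at 12.89 in CT12 and 13.43 in CT6, and at 13.02 in ZT12 and 13.59 in ZT6. Rpl30 went the other way, at 9.50 in CT12 and 8.70 in CT6, and at 9.77 in ZT12 and 7.58 in ZT6. Its ZT6 reading was dim, at 175.54 deposited units, against 400.97 to 856.75 in the other pineal arrays. After normalization over both tissues that reading was 7.90, under the filter limit of 8.82. The regimes have different arrays at each hour, but with 1 array each the spread between arrays of the same time is unknown.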

How the data were processed

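Total RNA of 12 retina and 4 pineal samples was read on an Affymetrix rat array of 8799 probe sets. The authors deposited 1 table of linear intensity per probe set; how it was scaled is not given in the sources used here, but the trimmed means of the arrays, from 2466 to 2506, are nearly equal. Depth does not apply to arrays, whose number limits the precision. Gene symbols came from the platform annotation, which can be old; of the non-control probe sets 7006 had 1 symbol, 308 several and 1426 none, and the gene ID of 62 of 63 members was found in RefSeq.

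The 59 control probe sets were dropped, intensities were quantile normalized over the arrays of a fit, 16 was added and log2 taken. Probe sets with a mean at or above the 40th percentile (log2 8.88 for retina, 8.82 for both tissues) were tested, 5244 in each fit. limma 3.58.1 (R 4.3.3) fitted the 4 retina groups, and tissue with condition as a covariate over all 16 arrays, with Benjamini-Hochberg adjustment over all 5244. Tables were made with Python 3.11.15, pandas 2.3.3 and numpy 2.4.6. The members and lists were chosen with earlier results of these data known. Members with values named were, by rule, up to 10 called members that rose and 15 that fell between tissues, the 5 with the smallest p in each retina comparison, Rplp0, Rpsa, the 3 brightest and 3 dimmest in retina, and the 3 with the largest pineal hour difference of 1 sign; others were chosen after their values were seen. No columns were identical, and the highest Pearson r between retina arrays was 0.964.

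Alternatives were other offsets (1 and 64), scalings, filters, priors, array weights, the replicate number as a block, and leaving out each array.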

Additional observations from a re-analysis of the deposited data

Results flagged for a closer look

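Of 26 sets of 4 pineal readings checked, 2 held 1 array far from the others, where chance flags about 1 in 20. For Rps3 (X51536cds_g_at), pineal CT12 read 16.29, while the other 3 pineal arrays read 16.64 to 16.68. For Rpl18 (M20156_at), pineal ZT6 read 12.16, while the other 3 read 11.99 to 12.00.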

How the results depend on the processing

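The count of called members was 0 in all 7 retina comparisons under other offsets, scalings, filters and a trended robust prior, and in the 4 pairwise ones fitted on the compared arrays alone. Array weights, whose fit stopped before it converged and gave CT12 array 2 a weight of 48.4 and CT12 array 1 one of 0.0439, called 3 members in ZT12 minus ZT6, 28 in CT12 minus CT6, 34 in CT12 minus ZT12, 6 in hour 12 minus hour 6, 12 in CT minus ZT and 17 in the difference of time effects. Over all 5244 probe sets array weights called 279, 2524, 2568, 1432, 1031 and 1370 in these comparisons in the same order. Leaving out 1 array, or the arrays numbered 3 (all titled brain), gave 0 to 14 called members in CT12 minus CT6 and 0 to 21 in CT12 minus ZT12, both highest without CT12 array 3, when 1306 and 1072 of all 5244 were called, and medians of 0.080 (without CT12 array 1) to 0.47, 0.21 to 0.53 and, for the difference of time effects, 0.18 (without CT12 array 1) to 0.58. As deposited, the medians of these 3 comparisons were 0.50, 0.62 and 0.58, and with a common median 0.49, 0.60 and 0.51. Samples with the same replicate number had r of -0.41 to 0.41 over 18 pairs, against -0.52 to 0.53 for other pairs. With 3 arrays a group, this check cannot exclude that the numbers pair the arrays. With the replicate number as a block 0 members were called in any retina comparison. Between tissues the members' median was -0.67 with a common median, -1.03 with array weights and -0.71 with the brightest probe set of each gene. It was -2.23 with the several-symbol probe sets in place of the members. Leaving out an array or the arrays numbered 3 gave medians of -1.24 to -0.97, with 48 to 52 members called. Those counts are not set against the share of all probe sets called in the same fits. Of the named genes, Rps29 (rc_AA965264_at) turned to 0.012 for hour 12 minus hour 6 with a common median, and Rps6 (M29358_at) had an adjusted p of 0.053 (limma) without pineal CT6; the cause was not tested.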
